A study of Homo sapiens with 4 samples.

Results

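The genes described here encode the pappalysin proteases PAPPA and PAPPA2, the stanniocalcins STC1 and STC2, the insulin-like growth factor (IGF) binding proteins IGFBP2 to IGFBP6, and the receptor IGF1R. They were found by symbol in a table of 58219 genes, and all 10 had a row. PAPPA2 and STC2 were selected on their fold changes with carnosine, which went in opposite directions, so their values are a description with no test. The other 8 genes belong to the set by family. RNA came from U87, an established human glioblastoma line, grown in high-glucose medium with serum. Cells had 24 h in fresh medium with 50 mM carnosine, the dipeptide beta-alanyl-L-histidine, or 24 h in fresh medium with none, and each group has 2 libraries. Medium without added carnosine (0 mM) is the only control in the labels. The labels do not say that replicates came from separate cultures. The p values set the group difference against the spread between these libraries, pooled in part over genes, and that spread may be technical.

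IGFs signal through IGF1R, a receptor tyrosine kinase, and are held outside the cell by binding proteins. Pappalysins are secreted metalloproteases that cut binding proteins and so free bound IGF: PAPPA cuts IGFBP4 and IGFBP5, and PAPPA2 cuts IGFBP3 and IGFBP5. Stanniocalcins are secreted glycoproteins that bind pappalysins and block their activity. Binding protein cleavage, inhibition and receptor activity are protein events, and the libraries measure mRNA.

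Gene counts summed to between 51632970 and 71766267 per library. CPM below means counts relative to the library size after TMM scaling. A count of 0 allows up to 3 counts, or 0.0422 to 0.0596 CPM depending on the library, and this limit covers counting error only. Of 8 markers chosen for glial and glioma cells, VIM and CD44 were abundant, NES had 23.7 to 44.0 CPM, GFAP had 4 to 16 counts, SOX2 had 2 counts in 1 library, and S100B and AQP4 had no count. OLIG2 had 3.56 and 4.11 CPM in control libraries and 1.75 and 2.50 CPM with carnosine. The 8 summed to 8200 to 8735 CPM in controls and 6926 to 7189 CPM with carnosine, most of it VIM. VIM had 7420 and 7045 CPM in control libraries and 5583 and 5629 CPM with carnosine. CD44 went the other way, with 1281 and 1107 CPM in control libraries and 1317 and 1522 CPM with carnosine. CDKN2A, known to be deleted in U87, had no count either. Over 3 endothelial markers the summed level was 2.28 to 2.90 CPM in controls and 5.54 to 6.77 CPM with carnosine, nearly all of it PECAM1, while CDH5 had no count. The other marker lists summed to 0.759 to 0.801 and 0.366 to 0.894 CPM for blood, 1.07 to 1.24 and 1.80 to 1.87 CPM for epithelium, and 15.4 to 18.7 and 9.85 to 12.2 CPM for neurons, in controls and with carnosine. Nearly all of the epithelial level was EPCAM and nearly all of the neuronal level SNAP25, while the neuronal markers RBFOX3 and NEFL had no count. The part of these markers in the results was not tested.

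PAPPA, IGFBP4 and PAPPA2 are shown first by the DNA upstream of their starts, since the paralogs PAPPA and PAPPA2 went opposite ways while PAPPA and its substrate gene IGFBP4 both rose. Each run holds 240 bases, read 5′ to 3′ on the gene's own strand, and leaves out the 10 bases next to the RefSeq start (build GRCh38.p14). PAPPA is at chr9:116153541-116153780, IGFBP4 at chr17:40443200-40443439 and PAPPA2 at chr1:176462925-176463164, all on the plus strand. Capitals mark matches, on either strand, to the 6 motifs named below.
PAPPA: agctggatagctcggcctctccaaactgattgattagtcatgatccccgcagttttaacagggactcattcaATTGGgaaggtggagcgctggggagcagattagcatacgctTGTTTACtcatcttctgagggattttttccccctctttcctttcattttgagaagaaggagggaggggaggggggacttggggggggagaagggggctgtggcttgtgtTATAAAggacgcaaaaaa
IGFBP4: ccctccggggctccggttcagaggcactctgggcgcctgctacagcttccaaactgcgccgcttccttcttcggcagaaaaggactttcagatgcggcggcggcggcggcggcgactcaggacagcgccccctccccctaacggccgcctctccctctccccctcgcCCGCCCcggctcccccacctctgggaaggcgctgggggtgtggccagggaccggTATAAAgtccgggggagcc
PAPPA2: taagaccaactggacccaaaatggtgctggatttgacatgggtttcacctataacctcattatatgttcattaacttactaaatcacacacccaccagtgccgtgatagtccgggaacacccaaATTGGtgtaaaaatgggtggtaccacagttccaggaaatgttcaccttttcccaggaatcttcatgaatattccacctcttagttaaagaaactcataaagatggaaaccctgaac

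The motifs searched were the TATA box TATAAA, the GC box GGGCGG, the CCAAT box CCAAT, the forkhead motif GTAAACA, the AP-1 motif TGACTCA and the C/EBP-ATF element TTGCATCA. PAPPA and IGFBP4 each held TATAAA, beginning 28 and 29 bases before the RefSeq start. That motif was present in 10.6% of 35116 windows of the same length in the RefSeq promoter table. The window of IGFBP5, also higher with carnosine, lacked TATAAA and held none of the 6 motifs. TATAAA was also absent from the windows of IGFBP3, IGFBP6 and IGF1R, genes that did not pass the test given below. The STC2 window lacked it too, but all 240 of its bases lie within annotated STC2 exons, so it is no comparison. The PAPPA2 window held the CCAAT box, found in 31.4% of windows, and no other motif of the 6. PAPPA also held the CCAAT box and, in reverse, the forkhead motif, which 2.85% of windows hold. The forkhead motif was in the IGFBP6 window too, and IGFBP6 did not pass the test given below. IGFBP4 held the GC box, present in 41.4% of windows, as did IGFBP3, IGFBP6 and IGF1R, which did not pass. G and C made up 50.0% of the PAPPA window, 70.8% of the IGFBP4 window and 41.2% of the PAPPA2 window, against a median of 57.9%. The table held 9 of the 10 genes, and the STC2 window is not shown because it lies within annotated STC2 exons. These matches describe letters and say nothing of binding. Windows were chosen for display by the direction of change, and any part of this DNA in those changes was not tested.

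Carnosine was compared with control over all 16340 genes that passed the filter on low counts, by edgeR's quasi-likelihood test. With 0.05 as the limit of the adjusted p, 8.31% of these passed, and as shares of all tested genes 3.95% stood higher and 4.36% lower with carnosine. Of the 8 genes taken by family, 7 passed the filter. PAPPA, IGFBP4 and IGFBP5 rose, STC1, IGFBP3, IGFBP6 and IGF1R did not pass the test, and IGFBP2 was not tested. The median log2 fold change of the 7 was 0.23, beside 0.0009 over all genes tested. Nothing is read from the share of these genes that passed, because the set was proposed with this comparison in view. In 4 of the 7 both carnosine libraries lay above both controls, beside 27.8% of all tested genes, and nothing is read from that count for the same reason. Groups did not overlap, in one direction or the other, for 56.5% of all tested genes. In bulk RNA, fewer cells that express a gene and less RNA per cell cannot be told apart.

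**Figure D1:**
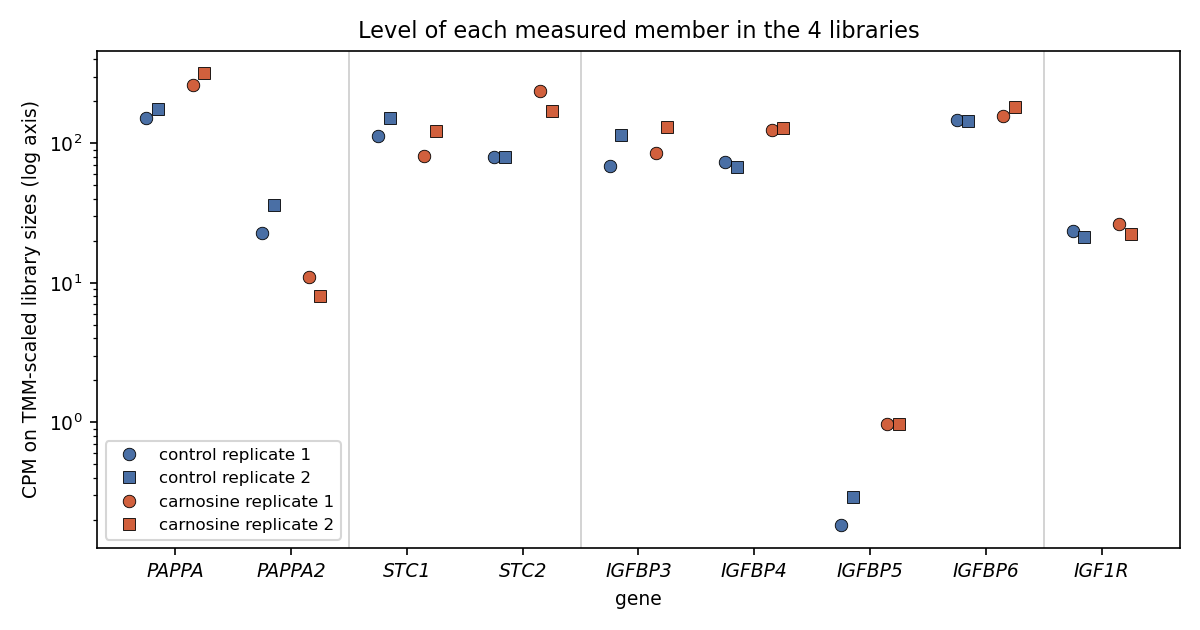
Level of the 9 tested genes in each library, in CPM on a log axis. Blue points are controls, orange points are carnosine, and circles and squares are replicates 1 and 2. PAPPA2 is lower in both carnosine libraries than in both controls, PAPPA, STC2, IGFBP4, IGFBP5 and IGFBP6 are higher, and STC1, IGFBP3 and IGF1R overlap.

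PAPPA (ENSG00000182752.9, chromosome 9, 116153804 to 116402322, GRCh38) is the protease whose cutting of IGFBP4 is promoted by bound IGF. It had 152.4 and 175.4 CPM in control replicates 1 and 2, and 262.0 and 317.2 CPM in carnosine replicates 1 and 2. Both carnosine libraries lay above both controls, and the groups did not overlap. The mean went from 163.9 ± 16.3 to 289.6 ± 39.0 CPM (SD, n = 2 each), 1.77-fold higher, a rise of 0.82 ± 0.14 on the log2 scale (SE, edgeR adjusted p = 0.0213). Without control replicate 1 the log2 fold change was 0.72 and the call ended (adjusted p = 0.0694). Of the exonic bases of PAPPA, 21.2% are also exons of the antisense gene PAPPA-AS1, and no source used here says whether reads were counted by strand. PAPPA-AS1 itself had 23 to 28 counts per library, against 10293 to 15975 for PAPPA.

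PAPPA2 (ENSG00000116183.10, chromosome 1, 176463171 to 176845605, GRCh38) is the paralog that cuts IGFBP3 and IGFBP5. It had 22.8 and 35.9 CPM in the controls and 10.9 and 8.00 CPM with carnosine. The carnosine libraries were both lower, and the 2 controls differed more from each other than the 2 carnosine libraries did. The mean was 29.4 ± 9.24 CPM in controls and 9.46 ± 2.07 CPM with carnosine (SD, n = 2 each), 3.10-fold lower, with a log2 fold change of -1.63 ± 0.24 (SE). Leaving out control replicate 1 gave -1.93, and leaving out control replicate 2 gave -1.27.

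The protease mRNAs were set against each other per kilobase of annotated exon, which allows levels of different genes to be compared. PAPPA2 made up 13.7% and 17.8% of the summed PAPPA and PAPPA2 level in the controls, and 4.23% and 2.60% with carnosine. PAPPA was thus the more abundant of the pair in all 4 libraries. The ratio of PAPPA to PAPPA2 per kilobase was 6.30 and 4.61 in control libraries and 22.7 and 37.4 with carnosine. Ratios within a library do not depend on how libraries are scaled. Since PAPPA2 was picked for its change, these ratios are given as a description. With 2 libraries against 2, an exact permutation test of any single ratio cannot go below 0.333 (two-sided).

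STC2 (ENSG00000113739.10, chromosome 5, 173314713 to 173329503, GRCh38) is the stanniocalcin that forms a covalent complex with PAPPA, and its gene is known to be induced by endoplasmic reticulum stress. It had 79.6 and 79.9 CPM in the controls, which were almost equal, and 236.9 and 169.9 CPM with carnosine. Both carnosine libraries were higher, with replicate 1 the higher of the pair. The mean went from 79.7 ± 0.21 to 203.4 ± 47.4 CPM (SD, n = 2 each), 2.55-fold higher, with a log2 fold change of 1.35 ± 0.16 (SE). The value was 1.09 without carnosine replicate 1 and 1.57 without carnosine replicate 2.

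STC1, the other stanniocalcin, a gene known to respond to hypoxia, had 112.7 and 152.4 CPM in the controls and 80.4 and 123.4 CPM with carnosine. The groups overlapped, because carnosine replicate 2 lay above control replicate 1. Its log2 fold change was -0.38 ± 0.22 (SE, n = 2 each) and did not pass (adjusted p = 0.326 in edgeR). Without carnosine replicate 2 it was -0.73 and passed (adjusted p = 0.0338), and without carnosine replicate 1 it was -0.11 (adjusted p = 0.767).

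Between the stanniocalcins, STC2 stood at 0.478 and 0.355 of the STC1 level per kilobase in the controls and at 1.99 and 0.932 in carnosine replicates 1 and 2. STC1 was the higher of the 2 in both controls and in carnosine replicate 2, and STC2 in carnosine replicate 1. The ratio of STC1 to PAPPA was 2.06 and 2.42 in control libraries and 0.856 and 1.08 with carnosine, lower in both carnosine libraries. The ratio of STC2 to PAPPA was 0.986 and 0.860 in control libraries and 1.71 and 1.01 with carnosine. These groups do not overlap, but carnosine replicate 2 lay close to control replicate 1.

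The sum of both stanniocalcins over the sum of both proteases moved less than the single pairs. It was 2.63 and 2.70 in control libraries and 2.45 and 2.04 with carnosine. The ratio of STC2 to PAPPA2, the 2 genes picked for opposite changes, was 6.21 and 3.97 in control libraries and 38.7 and 37.9 with carnosine.

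**Figure D2:**
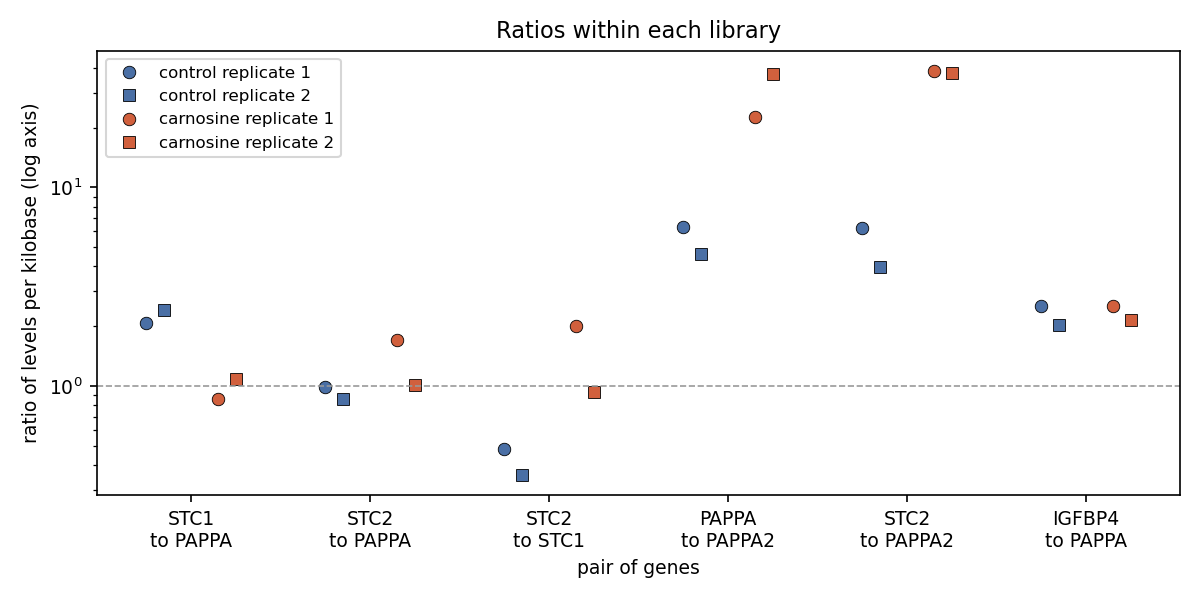
Ratio of levels per kilobase of exon within each library, on a log axis, for 6 pairs of genes. Blue points are controls, orange points are carnosine, circles and squares are replicates 1 and 2, and the dashed line is a ratio of 1. PAPPA to PAPPA2 goes from 6.30 and 4.61 in controls to 22.7 and 37.4 with carnosine, while IGFBP4 to PAPPA overlaps between the groups.

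IGFBP4 (ENSG00000141753.6, chromosome 17, 40443461 to 40457731, GRCh38), the binding protein cut by PAPPA, had 72.9 and 67.8 CPM in the controls and 125.5 and 129.5 CPM with carnosine. Replicates lay close together and the groups were apart. The mean went from 70.3 ± 3.62 to 127.5 ± 2.78 CPM (SD, n = 2 each), 1.81-fold higher, a rise of 0.86 ± 0.10 on the log2 scale (SE, adjusted p = 0.0113 in edgeR). Leaving out any 1 of the 4 libraries gave 0.80 to 0.91, and the call held each time with adjusted p from 0.00526 to 0.0284. The ratio of IGFBP4 to PAPPA per kilobase was 2.52 and 2.03 in control libraries and 2.52 and 2.15 with carnosine, so the groups overlapped on that ratio.

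IGFBP5 (ENSG00000115461.4, chromosome 2, 216672105 to 216695525, GRCh38), a binding protein cut by both proteases, was scarce. It had 13 and 17 counts in the controls and 58 and 49 counts with carnosine, or 0.183 and 0.290 CPM against 0.964 and 0.973 CPM. The carnosine libraries were both higher and nearly equal. The log2 fold change was 2.04 ± 0.43 (SE, n = 2 each, adjusted p = 0.0382 in edgeR), or 4.11-fold higher. The call ended without any 1 of the 4 libraries, with adjusted p from 0.0619 to 0.151 and log2 fold changes from 1.73 to 2.39.

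IGFBP6, which prefers IGF2 over IGF1, had 146.8 and 144.1 CPM in the controls and 156.8 and 180.9 CPM with carnosine. The carnosine libraries were both above the controls, but the log2 fold change of 0.22 ± 0.11 (SE, n = 2 each) did not pass (adjusted p = 0.267 in edgeR). IGFBP3, the main carrier of IGF in blood and a PAPPA2 substrate, had 68.6 and 114.9 CPM in the controls and 85.2 and 130.4 CPM with carnosine. Its groups overlapped, since replicates of 1 group differed more than the group means did. The log2 fold change was 0.23 ± 0.27 (adjusted p = 0.638), and its sign turned without control replicate 1 (-0.10) and without carnosine replicate 2 (-0.11). IGFBP2, a binding protein often raised in glioblastoma tissue, had 1 count in control replicate 1 and none in the other 3 libraries.

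**Figure D3:**
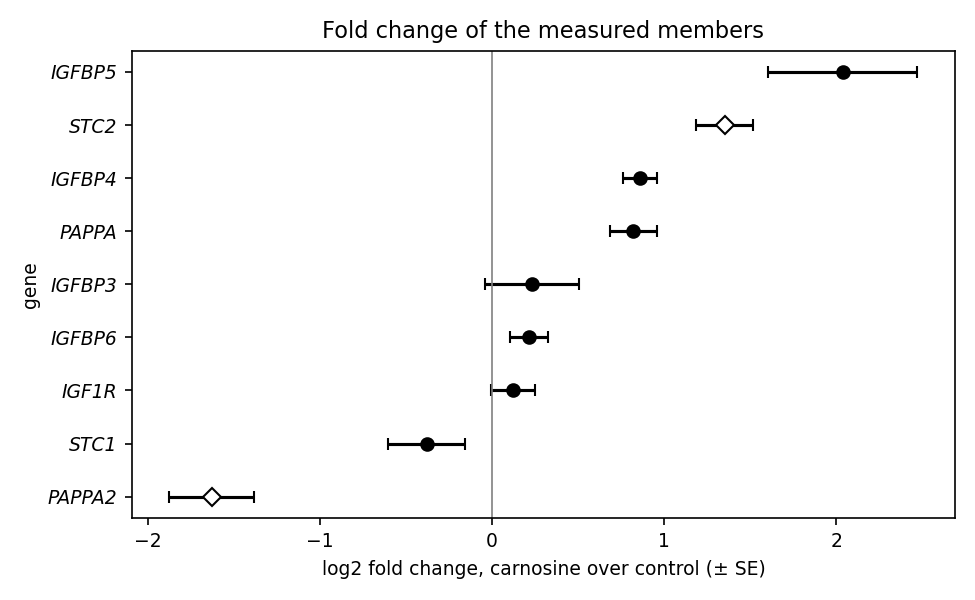
Log2 fold change of carnosine over control with its SE for the 9 tested genes, from 2 libraries in each group. Filled circles are genes taken by family and open diamonds are PAPPA2 and STC2, which were picked for their change. Values run from -1.63 for PAPPA2 to 2.04 for IGFBP5.

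Per kilobase of exon, IGFBP6 was the most abundant of the 10 genes in both groups, at 108.0 ± 1.42 CPM per kilobase in controls and 125.4 ± 12.7 with carnosine (SD, n = 2 each). In controls it was followed by IGFBP4 (32.0 ± 1.64), STC1 (32.0 ± 6.77), IGFBP3 (20.1 ± 7.16), PAPPA (14.2 ± 1.41) and STC2 (13.0 ± 0.03). The libraries of IGFBP4 and STC1 overlapped in level, as did those of IGFBP3 and PAPPA, and those of other neighbours in this order did not. With carnosine the order after IGFBP6 was IGFBP4 (58.0 ± 1.26), STC2 (33.2 ± 7.73), PAPPA (25.0 ± 3.37), STC1 (24.6 ± 7.32) and IGFBP3 (23.6 ± 7.0). PAPPA, STC1 and IGFBP3 each overlapped with the next in that order, while IGFBP4, STC2 and PAPPA did not overlap with each other, STC2 and PAPPA by a narrow margin (27.7 and 27.4 in carnosine replicate 2). STC2 also overlapped with STC1 and IGFBP3. By group means STC2 had rank 6 of the 10 genes in controls and rank 3 with carnosine, and STC1 rank 3 and rank 5. In carnosine replicate 2 alone, however, STC2 had rank 5 and STC1 rank 3. This order and these ranks depend on taking all annotated exons as the length. With the longest transcript instead, IGFBP3 stood above IGFBP4 in the control means (19.5% against 16.6% of the summed IGFBP2 to IGFBP6 level). PAPPA2, IGF1R, IGFBP5 and IGFBP2 were the lowest in both groups, at or below 2.69 CPM per kilobase.

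As a share of the summed level of IGFBP2 to IGFBP6 per kilobase, IGFBP6 took 69.4% and 65.7% in control libraries and 60.6% and 60.6% with carnosine. IGFBP4 took 21.1% and 18.9% in control libraries and 29.7% and 26.5% with carnosine, higher in both carnosine libraries. IGFBP3 took 9.54% and 15.4% in control libraries and 9.69% and 12.9% with carnosine, which overlapped. The sum itself was 157.2 and 163.0 CPM per kilobase in the controls and 192.3 and 221.9 with carnosine. It leaves out IGFBP7 and IGFBP1, which are not among the 10 genes. Their means were 49.0 and 8.44 CPM per kilobase in controls and 39.4 and 10.9 with carnosine. With the longest transcript in place of all annotated exons as the length, the mean share of IGFBP3 became 19.5% in controls and 18.0% with carnosine, since its longest transcript has 2412 bases and its exons together 4571.

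**Figure D4:**
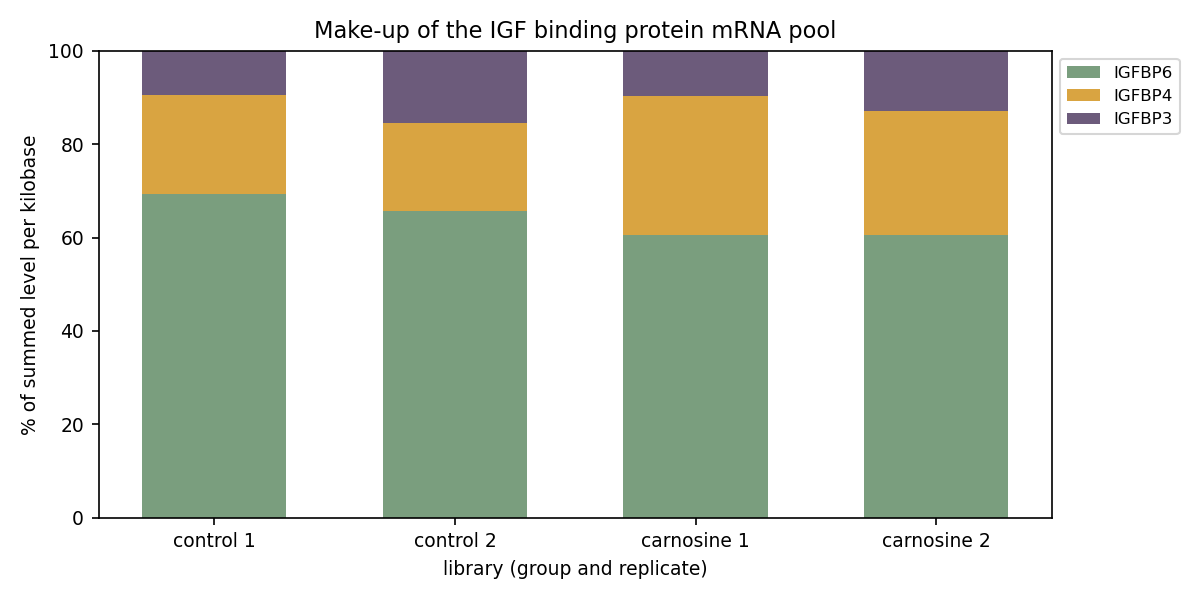
Share of IGFBP6, IGFBP4 and IGFBP3 in the summed level per kilobase of IGFBP2 to IGFBP6, as a percentage for each library. IGFBP1 and IGFBP7 are outside this sum. IGFBP5 and IGFBP2 make up less than 0.1% and are too thin to draw. The IGFBP4 band is wider in both carnosine libraries (29.7% and 26.5%) than in the controls (21.1% and 18.9%).

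IGF1R (ENSG00000140443.13, chromosome 15, 98648539 to 98964530, GRCh38) had 23.3 and 21.5 CPM in the controls and 26.4 and 22.2 CPM with carnosine. The groups overlapped, and the log2 fold change of 0.12 ± 0.13 (SE, n = 2 each) did not pass (adjusted p = 0.599 in edgeR). Without carnosine replicate 1 it was -0.01.

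A list of 28 other genes of the IGF system held ligands, receptors, carriers, adaptors and feedback genes, and 21 of them were tested. By edgeR's quasi-likelihood test 0 of the 21 passed, beside 8.31% of all genes tested. DESeq2 called 1 of the 21 and limma-voom called 0, beside 2007 and 1322 of the 16340 genes tested. An unadjusted p under 0.05 was found for 5 of the 21, beside 27.4% of all genes tested. The median log2 fold change was 0.03, beside 0.0009 over all genes tested. The gene DESeq2 called was IRS2, the insulin receptor substrate and adaptor, with 5.22 and 5.76 CPM in the controls and 9.51 and 8.16 CPM with carnosine. Its log2 fold change was 0.69 ± 0.16 (SE, n = 2 each), with an adjusted p of 0.0507 by edgeR and 0.0197 by DESeq2. Leaving out 1 library at a time gave IRS2 log2 fold changes from 0.57 to 0.79. RACK1, a scaffold protein, and ITGA5, an integrin subunit, were the tested members with the most counts, and had log2 fold changes of -0.17 ± 0.12 and -0.20 ± 0.15 (adjusted p = 0.434 and 0.463, edgeR).

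The ligands IGF1 and IGF2 had at most 1 count in any library. Of the further binding proteins, IGFBP7 had 92.5 and 96.8 CPM in the controls and 86.4 and 65.7 CPM with carnosine, with a log2 fold change of -0.31 ± 0.14 (SE, n = 2 each, adjusted p = 0.206, edgeR). Leaving out 1 library at a time gave IGFBP7 log2 fold changes from -0.53 to -0.14. IGFBP1 had 12.5 to 15.4 CPM in the controls and 14.7 to 21.5 CPM with carnosine, and did not pass (adjusted p = 0.284, edgeR).

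Among 20 other genes, proteases known to cut IGF binding proteins and the PAPPA inhibitor PRG2, 11 were tested, 1 rose, 1 fell and 9 did not pass. By the same test 3.95% of all genes tested stood higher and 4.36% lower. The median log2 fold change of the 11 was 0.08, beside 0.0009 over all genes tested. HTRA1, a secreted serine protease that cuts IGFBP5, had 305.8 and 291.3 CPM in the controls and 485.0 and 489.6 CPM with carnosine. It rose 1.63-fold, with a log2 fold change of 0.71 ± 0.11 (SE, n = 2 each, adjusted p = 0.0174, edgeR). ADAMTS1, a secreted metalloprotease, had 62.7 and 63.0 CPM in the controls and 44.0 and 38.4 CPM with carnosine, and its log2 level dropped by 0.61 ± 0.10 (SE; edgeR adjusted p = 0.0225). Both calls ended without control replicate 1 (adjusted p = 0.0621 for HTRA1 and 0.0572 for ADAMTS1) and without control replicate 2 (0.101 and 0.0663). The log2 fold changes in those fits were 0.74 and 0.67 for HTRA1 and -0.62 and -0.61 for ADAMTS1.

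MMP2, a gelatinase, and CTSD, a lysosomal aspartic protease, had the most counts among members that did not pass, with log2 fold changes of 0.20 ± 0.15 and 0.08 ± 0.21 (SE, n = 2 each, adjusted p = 0.455 and 0.842, edgeR). PRG2, the proform of which binds and inhibits PAPPA, had no count in any library. STC1 and STC2 were the inhibitors of pappalysins, among the genes looked up, that had counts.

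The genes nearest to PAPPA2 in pattern were sought among 10892 protein-coding genes with a mean count of at least 100, by the distance between centred log2 CPM values over the 4 libraries. They were ADCY7, an adenylate cyclase (distance 0.44), PCK2, the mitochondrial phosphoenolpyruvate carboxykinase (0.45), and ERBB2, a receptor tyrosine kinase (0.46). PCK2 had 17.7 and 18.8 CPM in the controls and 7.50 and 4.49 CPM with carnosine. The genes nearest to STC2 were TUB (0.18), LTB4R, a leukotriene receptor (0.19), and ARMC9 (0.20). ARMC9 had 69.7 and 73.1 CPM in the controls and 180.5 and 140.8 CPM with carnosine. STC2 lay closer to its neighbours than PAPPA2 did to its own. With 4 libraries in 2 groups, likeness of pattern mostly reflects the size of the difference between the groups.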

How the data were processed

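Total RNA of 2 control and 2 carnosine samples of U87 cells was sequenced after rRNA depletion with stranded libraries pooled on 1 flow cell, per the labels' protocols. The authors deposited raw counts per gene. The tools were HISAT2 2.1.0 on build hg38, HTSeq 0.6.1 and bcl2fastq 2.17.0, per the submitters' processing notes. The sources used here give no annotation release, strand setting or handling of reads with several matches. All columns matched sample titles.

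Genes were filtered with filterByExpr (minimum count 10 in 2 libraries, total 15), which kept 16340 of 58219. The main test was edgeR 4.0.16 in R 4.3.3: TMM factors, a two-sided quasi-likelihood F test with only the group in the model (residual degrees of freedom 2), Benjamini-Hochberg adjustment over all genes tested, threshold 0.05. SE is the absolute log2 fold change over the square root of F. Log2 CPM used a prior count of 2. Levels per kilobase used GENCODE 29 exons (GRCh38), and gene coordinates came from the same release. Genes were matched by identifier without its version, and the versions of IGF1R and IGFBP6 differed between the counts and GENCODE 29. Alternatives were DESeq2 1.42.0, limma-voom (limma 3.58.1), other scalings, other filters, a replicate block and leaving out each library. The scripts were tested on simulated data.

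The genes and lists were chosen with earlier results of these data known. The text names all 10 genes, the passing genes of the 2 other lists with the 2 most counted that did not pass, and the 3 nearest genes to PAPPA2 and to STC2. IRS2, IGF1, IGF2, IGFBP1, IGFBP7 and PRG2 were named after their values were seen. Replicate libraries differed beyond sampling noise, with a chi-square per degree of freedom of 25.7 between controls and 39.7 between carnosine libraries.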

Additional observations from a re-analysis of the deposited data

How the results depend on the processing

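The calls of PAPPA, IGFBP4 and IGFBP5 held with DESeq2, limma-voom, 3 other scalings, both other filters and the replicate block, and their direction held in all 12 alternatives. Between scalings, log2 fold changes of the 9 tested genes moved by 0.033 or less. With no filter on low counts, 3145 of 26103 genes were called in place of 1358 of 16340. In that fit STC1 passed (edgeR adjusted p = 0.0239) and 2 genes of the IGF system list were called. That list had 1 call with DESeq2 and 1 with size factors as in DESeq2, a setting that called 1368 of 16340 genes. DESeq2, run on the whole table, called 2008 genes, 2007 of them among the 16340.

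Leaving out 1 library gave 505 to 1595 called genes (635 without control replicate 1 and 505 without control replicate 2), 1 to 3 of the genes taken by family, 0 to 2 of the IGF system list and 0 to 2 of the protease list. Such fits have 1 residual degree of freedom, and the lone library is assumed to vary like the other group. Over these fits the log2 fold change of IGFBP3 ran from -0.11 to 0.65, that of IGF1R from -0.014 to 0.23 and that of CTSD from -0.16 to 0.35. IGFBP3 was -0.097 without control replicate 1 and CTSD -0.15 without control replicate 2.

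Replicate numbers are shared by the groups, but no label says that they mark a pair. Differences between replicates 1 and 2 correlated across genes between the groups (r = 0.315), a hint from the data and not the design. With the replicate block 5767 of all 16340 genes tested were called. Called with it were 6 of the 7 tested genes taken by family, 9 of 21 in the IGF system list and 5 of 11 in the protease list. STC1 (adjusted p = 2.79e-05), IGFBP3 (0.0118) and IGFBP6 (0.0441) passed only there among fits of all 4 libraries, apart from STC1 with no filter. Among named genes of the IGF system list the block called IGFBP7 lower (-0.33, adjusted p = 0.000505), IRS2 higher (0.69, 3.74e-05) and IGFBP1 higher (0.36, 0.00417).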
